A study of Mus musculus with 18 samples.

Results

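Transcript levels of 8 homeobox genes, Dlx1, Dlx2, Dlx3, Dlx4, Dlx5, Dlx6, Msx1 and Msx2, were followed in molar epithelium of mice lacking the nucleosome-binding proteins HMGN1 and HMGN2 and of wild-type mice. The genes were taken by name as the Dlx and Msx families, with earlier results of these data known, and the transcripts carrying each symbol were summed. All 8 were present among the 32532 symbols measured at embryonic day 17 (E17) and the 19450 measured at postnatal day 5 (P5). At postnatal day 0 (P0) the 4841 symbols come from chromosomes 1 and 10 and a part of chromosome 11, so that Dlx3 and Dlx4 are the 2 members measured there and the other members were not analysed here at that stage. At each stage, tooth germs of DKO mice, which carry Hmgn1-/- and Hmgn2-/- alleles, were set against tooth germs of WT mice, with 3 libraries per group, 6 groups and 18 libraries in all. In every group the epithelium had been parted from the mesenchyme with the protease dispase, and no other allele or agent is named for any group. Nothing in the labels ties a library to 1 animal, 1 litter or a pool, so the tests measure only the spread between these libraries, which may be technical. The series asks about ameloblasts, the enamel-forming cells of this epithelium.

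Dlx and Msx genes encode transcription factors with a homeodomain, a DNA-binding fold, and the families take their names from the fly genes Distal-less and msh. In the mouse the Dlx genes lie in linked pairs whose genes are transcribed towards each other and share enhancers. Dlx1 and Dlx2 act in the jaw-forming mesenchyme and are needed there for upper molars, Dlx5 and Dlx6 give the lower jaw its identity, and Dlx3 is mutated in a human disorder of hair, teeth and bone and activates enamel matrix genes. Msx1 is best known from dental mesenchyme, where it acts with Bmp4, and Msx2 is needed in the mouse for normal enamel. BMP signals induce genes of both families in the early tooth.

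On mouse build mm10, Dlx1 (chr2:71528113-71533981, plus strand) and Dlx2 (chr2:71543408-71546754, minus strand) were 9426 bp apart. Dlx3 (chr11:95120119-95125296, plus strand) and Dlx4 (chr11:95140447-95146263, minus strand) were 15150 bp apart. Dlx6 (chr6:6863334-6868568, plus strand) and Dlx5 (chr6:6877805-6882085, minus strand) were 9236 bp apart. Msx1 (chr5:37820485-37824583, minus strand) and Msx2 (chr13:53466884-53473074, minus strand) are paralogs on different chromosomes.

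RefSeq promoter windows on GRCm38.p6, running from 250 bases before to 50 bases after the start, were at hand for Dlx1, Dlx2, Msx1 and Msx2. They are shown for 3 genes on which the results turn: Msx2, with the largest rise of the family at E17, Dlx2, which rose at E17 and was not called at P5, and Msx1, which fell at P5. Capitals mark TAATTA, the core that many homeodomains prefer and its own reverse complement, CCAAT or its reverse complement ATTGG, and CACGTG, the palindromic E-box. These letters do not overlap one another in the windows.
Msx2 (chr13:53472731-53473030, minus strand): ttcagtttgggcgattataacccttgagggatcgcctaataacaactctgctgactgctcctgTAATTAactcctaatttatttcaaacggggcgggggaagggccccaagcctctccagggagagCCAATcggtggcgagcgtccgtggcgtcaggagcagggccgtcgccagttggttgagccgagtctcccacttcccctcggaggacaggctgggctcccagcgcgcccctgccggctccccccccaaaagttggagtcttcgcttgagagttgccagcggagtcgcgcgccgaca
Dlx2 (chr2:71546705-71547004, minus strand): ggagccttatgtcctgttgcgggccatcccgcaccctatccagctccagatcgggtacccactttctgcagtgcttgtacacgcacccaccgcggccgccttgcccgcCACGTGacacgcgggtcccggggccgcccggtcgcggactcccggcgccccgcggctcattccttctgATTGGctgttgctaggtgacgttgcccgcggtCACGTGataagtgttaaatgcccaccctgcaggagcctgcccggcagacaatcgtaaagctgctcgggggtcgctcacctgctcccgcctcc
Msx1 (chr5:37824536-37824835, minus strand): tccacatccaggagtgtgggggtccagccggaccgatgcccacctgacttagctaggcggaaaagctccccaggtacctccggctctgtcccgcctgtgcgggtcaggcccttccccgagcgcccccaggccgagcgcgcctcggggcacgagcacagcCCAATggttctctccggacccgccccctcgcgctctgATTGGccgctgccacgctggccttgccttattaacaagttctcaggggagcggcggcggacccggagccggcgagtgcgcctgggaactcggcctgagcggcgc
The Msx2 window held TAATTA at position -187 and CCAAT at position -124, counted from the start. The Dlx2 window held CACGTG at -142 and -42 and ATTGG at -74, and the Msx1 window held CCAAT at -91 and ATTGG at -54. None of these letters occurred in the Dlx1 window (chr2:71529195-71529494, plus strand). Both strands were searched, and of 32544 windows of the same length 5.29% held TAATTA, 37.4% held CCAAT or ATTGG, and 7.17% held CACGTG. All 4 windows were rich in G and C: 61.0% of bases in Msx2, 66.3% in Dlx2, 70.0% in Msx1 and 69.3% in Dlx1, with 22, 29, 29 and 27 CpG dinucleotides, beside medians of 53.0% and 7 over all windows. A match is a string of letters and not an observed binding site.

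The values were taken as RPKM, reads scaled to transcript length and to the mapped reads of the library. Read so, levels can be set side by side between genes within a stage. The unit was inferred from the values, by a check made at E17 and P0 and not at P5. The 2 knocked-out genes went with their labels. Hmgn2 was at 0.839, 0.953 and 0.975 RPKM in DKO libraries and 354, 344 and 320 RPKM in WT libraries at E17, and at 9.05, 5.44 and 10.4 RPKM in DKO and 183, 166 and 166 RPKM in WT libraries at P5. Hmgn1 transcripts persisted at a lower level, averaging 90.6 RPKM in DKO and 128 RPKM in WT libraries at E17 and 71.5 RPKM in DKO and 185 RPKM in WT libraries at P5, and which part of the gene was removed is not given in the sources used here. Neither gene was analysed here at P0, so the labels of that stage have no such check. Over all genes tested, log2 fold changes (DKO over WT) had a median of 0.25 at E17, -0.05 at P0 and -0.25 at P5. The words rose and fell are therefore kept for genes that limma called at an adjusted p under 0.05 in the same direction both on RPKM as deposited and after scaling the libraries of a stage to the same upper quartile. All fold changes were taken as differences of log2(RPKM + 1), which understates the change of low genes, and are given with a standard error (SE).

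At E17 most of the family stood higher in the DKO epithelium. Msx2, Dlx1, Dlx2, Dlx3, Dlx4 and Dlx5 rose, Dlx6 fell, and Msx1 was not called. That is 6 of 8 members higher and 1 of 8 lower, where 6.61% of the 13728 genes tested were called higher and 3.07% lower. All DKO libraries lay above all WT libraries for the same 6 members and below them for Dlx6, as for 60.9% and 3.83% of the genes tested. The median log2 fold change of the 8 members was 0.86, beside 0.25 over all genes tested. After upper-quartile scaling these medians were 0.58 and -0.00. In bulk tissue a change in the number of cells that express a gene and a change in RNA per cell cannot be told apart.

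Msx2, a repressor and regulator of the enamel organ, changed most. It had 20.8, 24.7 and 23.6 RPKM in DKO libraries, against 6.32, 6.70 and 6.12 RPKM in WT libraries. Every DKO library was far above every WT library, and the ratio of the means was 3.61. Its log2 fold change was 1.70 ± 0.08 (SE; adjusted p = 8.96e-06), and 1.44 after scaling (adjusted p = 1.37e-05). By this value as deposited Msx2 ranked 37 from the top of the genes tested.

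The linked factors Dlx1 and Dlx2 stood higher by nearly the same factor. Dlx1 had 78.9, 75.02 and 84.1 RPKM in DKO libraries, against 26.0, 45.0 and 30.2 RPKM in WT libraries, where replicate 2 was the highest. Dlx2 had 34.2, 40.1 and 37.1 RPKM in DKO libraries, against 13.9, 17.1 and 14.6 RPKM in WT libraries. The groups did not overlap for either gene, and the ratios of the means were 2.35 and 2.44. For Dlx1 the log2 fold change was 1.25 ± 0.17 (SE; adjusted p = 0.00128) and 0.96 after scaling (adjusted p = 0.0130). For Dlx2 it was 1.24 ± 0.09 (SE; adjusted p = 0.000117) and 0.96 after scaling (adjusted p = 0.000502). The call of Dlx1 was lost without DKO replicate 3 (0.94 after scaling, adjusted p = 0.0514) or WT replicate 3 (0.92 after scaling, adjusted p = 0.0624), and with coding transcripts alone, as described with the transcripts of its locus. Without the filter on low values Dlx1, Dlx3 and Dlx4 were not called after scaling (adjusted p = 0.0883, 0.0655 and 0.103).

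Dlx3, the pair member tied to enamel and hair, had 22.1, 23.0 and 22.1 RPKM in DKO libraries, against 10.01, 13.8 and 11.1 RPKM in WT libraries. Its log2 fold change was 0.90 ± 0.10 (SE; adjusted p = 0.000683), and 0.63 after scaling (adjusted p = 0.00922). The DKO libraries lay within a narrow band, well above the WT libraries. Dlx4, its neighbour, was the lowest member, at 3.96, 3.97 and 3.79 RPKM in DKO libraries, against 1.86, 2.56 and 2.07 RPKM in WT libraries. On the log2 scale Dlx4 differed by 0.64 ± 0.09 (SE; adjusted p = 0.00158) and 0.42 after scaling (adjusted p = 0.0255). These levels correspond to about 229 to 300 reads per DKO library and 110 to 141 per WT library. The call of Dlx4 was lost without DKO replicate 1 (adjusted p after scaling = 0.0709), DKO replicate 2 (0.0594), DKO replicate 3 (0.0716) or WT replicate 3 (0.0908), with log2 fold changes after scaling of 0.38, 0.43, 0.46 and 0.41.

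Dlx5 and Dlx6, the pair of lower-jaw factors, moved apart. Dlx5 had 40.4, 45.7 and 42.3 RPKM in DKO libraries, against 21.5, 26.6 and 23.8 RPKM in WT libraries. Dlx6 had 7.25, 8.75 and 6.80 RPKM in DKO libraries, against 9.77, 10.97 and 10.2 RPKM in WT libraries. All DKO libraries were above all WT libraries for Dlx5 and below them for Dlx6. The log2 fold change of Dlx5 was 0.82 ± 0.09 (SE; adjusted p = 0.000524), and 0.53 after scaling (adjusted p = 0.00578). For Dlx6 it was -0.40 ± 0.09 (SE; adjusted p = 0.00682), and -0.66 after scaling (adjusted p = 0.00351).

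Msx1, the factor of the dental mesenchyme, had 74.9, 78.0 and 78.8 RPKM in DKO libraries, against 56.3, 82.5 and 59.7 RPKM in WT libraries at E17. The groups overlapped, with WT replicate 2 the highest of the 6 libraries. Its log2 fold change was 0.24 ± 0.13 (SE; adjusted p = 0.1304), and -0.05 after scaling (adjusted p = 0.833), so that even its direction depended on the scaling. Without WT replicate 2 it was 0.41 as deposited (adjusted p = 0.00689), and 0.12 after scaling (adjusted p = 0.236).

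**Figure D1:**
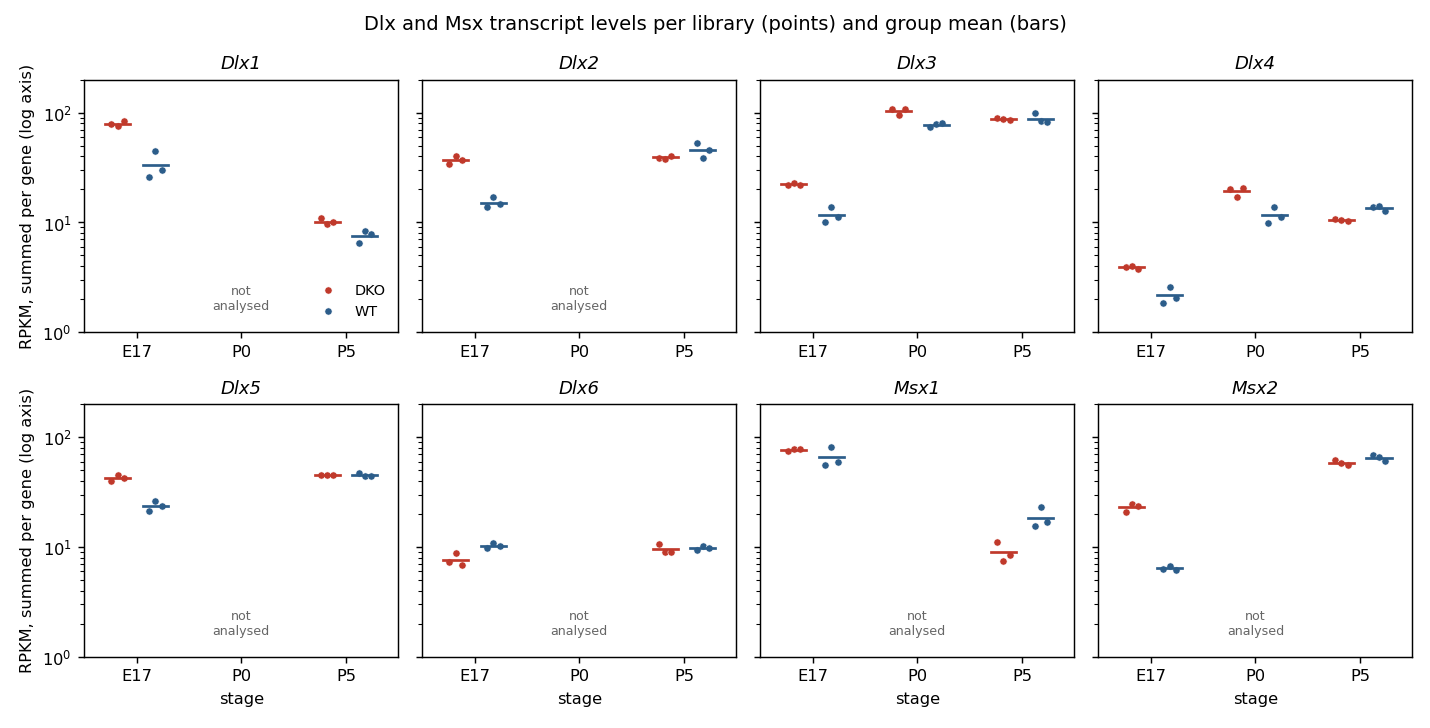
Level of each gene (RPKM summed over its transcripts, log axis) in each library at E17, P0 and P5, with points for libraries, bars for group means, and the DKO group left of the WT group at each stage. At E17 the DKO points lie above the WT points for 6 genes (Dlx1 to Dlx5 and Msx2) and below them for Dlx6, while at P5 the groups lie close together except for Dlx1, Dlx4 and Msx1.

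At P0 the 2 members measured, Dlx3 and Dlx4, both rose in the DKO epithelium. Of the 2062 genes tested at this stage 16.7% were called higher and 22.8% lower. Dlx3 had 108, 94.6 and 109 RPKM in DKO libraries, against 74.1, 78.3 and 80.6 RPKM in WT libraries. Dlx4 had 20.1, 17.2 and 20.7 RPKM in DKO libraries, against 9.95, 13.7 and 11.2 RPKM in WT libraries. For both genes every DKO library was above every WT library, which held for 21% of all genes tested. The log2 fold change of Dlx3 was 0.41 ± 0.07 (SE; adjusted p = 0.000924) and 0.44 after scaling (adjusted p = 0.00101). That of Dlx4 was 0.69 ± 0.11 (SE; adjusted p = 0.000397) and 0.71 after scaling (adjusted p = 0.00231). Both calls held with each library left out in turn. About 6352 to 12682 reads stood behind each Dlx3 value and 622 to 1752 behind each Dlx4 value.

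At P5, when the crown epithelium is secreting enamel, few members were called in both scalings. Dlx1 rose and Msx1 fell, 1 of 8 in each direction, where 7.35% of the 11423 genes tested were called higher and 30.8% lower. The median log2 fold change of the members was -0.10, beside -0.25 over all genes tested, and after scaling 0.11, beside -0.06. The DKO libraries lay above all WT libraries for Dlx1 and below them for Dlx4 and Msx1, as for 8.66% and 61.8% of the genes tested. By scaled fold change Dlx1 stood at percentile 97.0 of these genes and Msx1 at percentile 2.22.

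Dlx1 had 10.9, 9.62 and 10.01 RPKM in DKO libraries, against 6.45, 8.30 and 7.90 RPKM in WT libraries at P5. Its log2 fold change was 0.39 ± 0.09 (SE; adjusted p = 0.00314), and 0.59 after scaling (adjusted p = 0.00151). The DKO libraries were again above the WT libraries, at a ratio of means of 1.35. Msx1 had 11.1, 7.51 and 8.43 RPKM in DKO libraries, against 15.4, 23.1 and 16.8 RPKM in WT libraries. Its log2 fold change was -0.95 ± 0.15 (SE; adjusted p = 0.000331), and -0.75 after scaling (adjusted p = 0.00571). The mean in DKO libraries was 0.488 of that in WT libraries, with no overlap between the groups. Of the 12 markers of dental mesenchyme 11 were tested, of which 5 fell and none rose, beside 30.8% of all genes called lower, and the summed level of the 12 was 529 to 693 RPKM in DKO libraries and 1038 to 1137 RPKM in WT libraries. The part of this in the Msx1 result was not tested. The summed level of the 6 epithelium markers was 3624 to 3718 RPKM in DKO and 3640 to 4411 RPKM in WT libraries.

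The other 6 members were not called at P5. Msx2 had 61.7, 58.6 and 56.2 RPKM in DKO libraries, against 69.4, 65.9 and 61.0 RPKM in WT libraries, with a log2 fold change of -0.15 ± 0.06 (SE; adjusted p = 0.0560) and 0.07 after scaling (adjusted p = 0.267). Dlx2 had 38.9, 38.2 and 40.2 RPKM in DKO libraries, against 52.8, 38.6 and 45.4 RPKM in WT libraries, with a log2 fold change of -0.21 ± 0.09 (SE; adjusted p = 0.0743) and 0.01 after scaling (adjusted p = 0.903). The groups overlapped for both genes, in contrast to E17, and the signs depended on the scaling. Without WT replicate 2 the log2 fold change of Dlx2 was -0.32 as deposited (adjusted p = 0.00309).

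Dlx3 had 90.3, 87.2 and 85.5 RPKM in DKO libraries, against 98.5, 84.5 and 82.0 RPKM in WT libraries at P5. Dlx5 had 45.5, 45.4 and 45.6 RPKM in DKO libraries, against 47.6, 44.4 and 44.1 RPKM in WT libraries. Their log2 fold changes were -0.01 ± 0.07 and 0.01 ± 0.05 as deposited (SE; adjusted p = 0.938 for each), and 0.22 and 0.23 after scaling (adjusted p = 0.00837 and 0.00156), so that they differed only relative to the shift of all genes. Dlx4 showed the reverse case. It had 10.8, 10.4 and 10.2 RPKM in DKO libraries, against 13.7, 14.2 and 12.8 RPKM in WT libraries, which gave -0.34 ± 0.06 as deposited (SE; adjusted p = 0.00101) and -0.13 after scaling (adjusted p = 0.0748). Dlx6 had 10.6, 8.99 and 9.02 RPKM in DKO libraries, against 9.50, 10.3 and 9.87 RPKM in WT libraries, with a log2 fold change of -0.05 ± 0.08 (SE; adjusted p = 0.580) and 0.15 after scaling (adjusted p = 0.131). Over the family the scaling turned the sign of Dlx2, Dlx3, Dlx6 and Msx2 at P5.

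**Figure D2:**
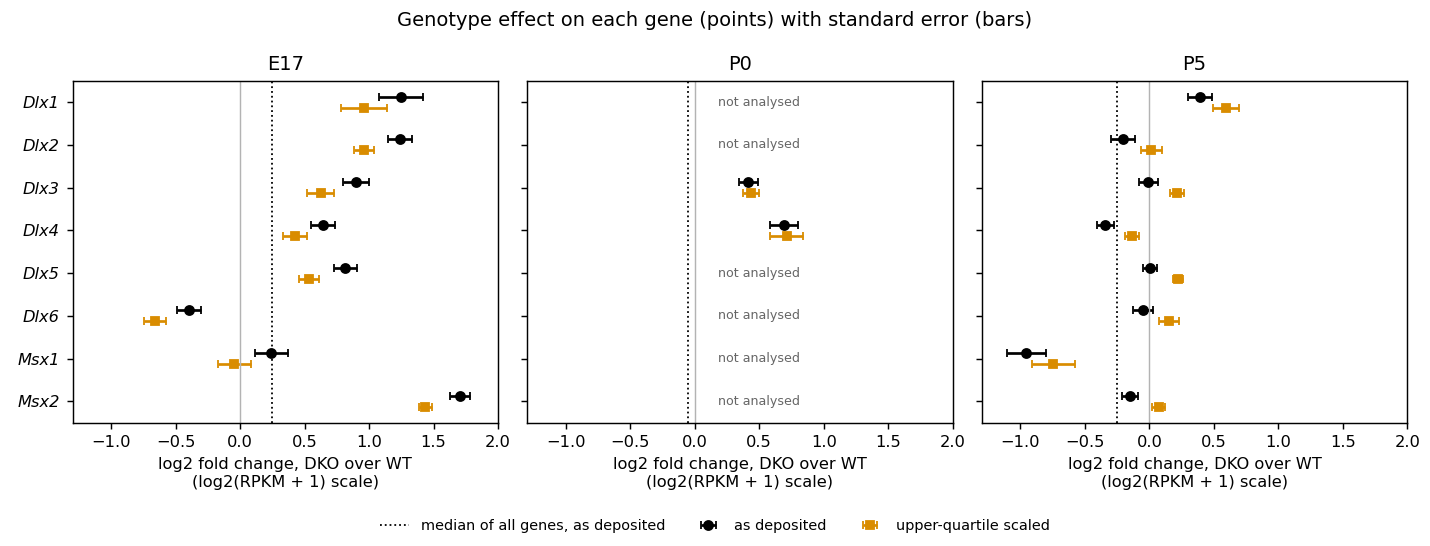
Log2 fold change of each gene (DKO over WT, log2(RPKM + 1) scale) with its standard error at each stage, for RPKM as deposited (black) and after upper-quartile scaling (orange); the dotted line is the median of all genes tested as deposited. At E17 the 6 genes that rose lie right of the dotted line in black and right of 0 in orange, and at P5 Msx1 lies furthest left at -0.95.

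The genotype effect itself differed between stages for most of the family. The effect at P5 minus the effect at E17 was called, in both scalings, as lower at P5 for 6 of 8 members and higher for 1 of 8, where 27.5% of the 11049 genes tested at both stages were called lower and 2.61% higher. Msx2 had the largest difference, -1.85 ± 0.10 (SE; adjusted p = 7.67e-10), followed by Dlx2 at -1.44 ± 0.13 (SE; adjusted p = 4.96e-08) and Msx1 at -1.19 ± 0.20 (SE; adjusted p = 2.56e-05). After scaling these 3 differences were -1.36, -0.95 and -0.70, and that of Msx1 was not called without the filter on low values (adjusted p after scaling = 0.0521). Dlx4, Dlx3 and Dlx5 had smaller ones of -0.98, -0.91 and -0.81, and -0.56, -0.41 and -0.31 after scaling.

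For Msx2 and Dlx2 the difference was thus a rise at E17 with no call at P5. Dlx3, Dlx4 and Dlx5 also rose at E17 and were not called in both scalings at P5. There Dlx3 and Dlx5 stood higher after scaling alone (0.22 and 0.23, adjusted p = 0.00837 and 0.00156). Dlx4 stood lower as deposited alone (-0.34, adjusted p = 0.00101). For Msx1 the difference was a fall at P5 with no call at E17. Dlx6 alone had a higher effect at P5, with a difference of 0.35 ± 0.12 (SE; adjusted p = 0.0125) and 0.81 after scaling (adjusted p = 5.10e-05), since it fell at E17 and was not called at P5. This call was lost without DKO replicate 3 of E17, at a difference of 0.28 (adjusted p = 0.0511). Dlx1 had a difference of -0.85 ± 0.19 (SE; adjusted p = 0.000971) as deposited and -0.37 after scaling (adjusted p = 0.163), and so was not called in both scalings. For Dlx1 the E17 sum is mostly of retained-intron transcripts, and the P5 value is of the only transcript annotated there, a coding one. With coding transcripts alone its E17 effect was 0.24 (0.01 after scaling), beside its P5 effect of 0.39 (0.59 after scaling). These are unlike measures, since reads at E17 were divided among several annotated transcripts. The difference of Dlx1 thus depended on the transcripts counted, and its sign is left undecided. Without WT replicate 2 of E17 the difference of the sums was called, at -1.07 and -0.59.

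For Dlx3 and Dlx4 the effect was also measured at P0. The effect at P0 minus that at E17 was not called in both scalings for either gene (31.6% of the genes tested at both were called), with -0.48 for Dlx3 (adjusted p = 0.00375; -0.19 after scaling, adjusted p = 0.233) and 0.05 for Dlx4 (adjusted p = 0.770; 0.29 after scaling, adjusted p = 0.158). The effect at P5 minus that at P0 was called lower for both, with -0.42 ± 0.10 for Dlx3 (SE; adjusted p = 0.00146; -0.22 after scaling) and -1.03 ± 0.13 for Dlx4 (SE; adjusted p = 2.16e-06; -0.85 after scaling). Of the 1758 genes tested at both of these stages, 31.2% were called lower in this way. The comparisons between stages share the libraries of the stage they have in common.

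Ratios of 2 genes within a library depend little on how the library was scaled, except where a gene is low enough for the added 1 to weigh, as for Dlx4 at E17. The differences below are means of log2((first gene + 1)/(second gene + 1)) in DKO minus WT libraries, with 9 such ratios tested by an exact two-sided permutation test, whose smallest p with 3 against 3 libraries is 0.1 (0.129 adjusted over the 9). Dlx1 over Dlx2 had nearly the same mean in both genotypes at E17 (1.08 ± 0.16 in DKO and 1.07 ± 0.25 in WT, SD, n = 3; exact p = 1) and differed by 0.60 at P5 (-1.84 ± 0.09 in DKO and -2.44 ± 0.38 in WT, SD; exact p = 0.1). By mean RPKM Dlx1 stood at 2.14 times the level of Dlx2 in DKO and 2.22 times in WT libraries at E17, and at 0.261 times in DKO and 0.165 times in WT libraries at P5. With coding transcripts alone the E17 difference of Dlx1 over Dlx2 was -1.03. Dlx6 over Dlx5 differed at the other stage. It was -2.35 ± 0.11 in DKO and -1.14 ± 0.07 in WT libraries at E17 (SD, n = 3; exact p = 0.1), a difference of -1.22, and -2.15 ± 0.13 in DKO and -2.09 ± 0.11 in WT libraries at P5 (SD; exact p = 0.7).

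Dlx4 over Dlx3 differed without overlap at every stage, but not in 1 direction. At E17 the difference was -0.26, at P0 it was 0.28, and at P5 it was -0.33 (exact p = 0.1 each). Dlx4 was the lower gene of the pair in every group. At E17 and P0 these values moved with the settings. The E17 difference was -0.11 with a pseudocount of 0.1 and -0.36 with the most abundant or the coding transcripts alone. The P0 difference was 0.03 with the most abundant transcript of each gene and 0.46 with coding transcripts alone. Msx1 over Msx2 was lower in DKO libraries at both stages, with differences of -1.46 at E17 and -0.80 at P5 (exact p = 0.1 each), with Msx2 called higher at E17 and Msx1 called lower at P5. By mean RPKM Msx1 stood at 3.35 times the level of Msx2 in DKO libraries at E17, against 10.4 times in WT libraries.

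**Figure D3:**
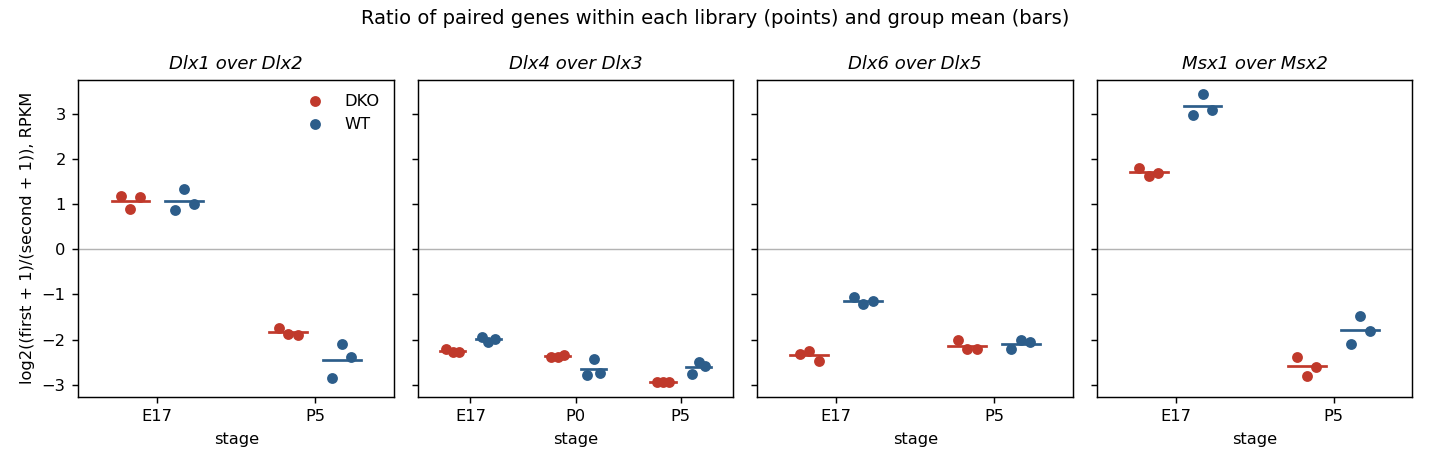
Log2 ratio of 2 genes within each library, as log2((first gene + 1)/(second gene + 1)) in RPKM, with points for libraries, bars for group means, and the DKO group left of the WT group. The genotypes coincide for Dlx1 over Dlx2 at E17 and for Dlx6 over Dlx5 at P5, and lie furthest apart for Msx1 over Msx2 and Dlx6 over Dlx5 at E17, with differences of -1.46 and -1.22.

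The transcripts behind these sums differed in kind. For Dlx2, Dlx3, Dlx5 and Msx2 the E17 change lay in coding transcripts, which held 96.2% of the Dlx2 sum, all of Dlx3 and 96.1% of the Msx2 sum in DKO libraries. Dlx1 was unlike them. Its transcript Dlx1-203, annotated as a retained intron, had 48.2, 44.5 and 49.5 RPKM in DKO libraries, against 14.6, 27.0 and 18.4 RPKM in WT libraries, and made up 59.7% of the gene's sum in DKO and 59.3% in WT libraries. A second retained-intron transcript, Dlx1-206, had 26.4, 25.9 and 30.7 RPKM in DKO libraries, against 8.07, 14.2 and 8.35 RPKM in WT libraries. The coding transcript Dlx1-201 stood at 2.23, 2.17 and 2.15 RPKM in DKO libraries, against 2.19, 2.01 and 2.02 RPKM in WT libraries, at a ratio of 1.05 (exact permutation p = 0.3).

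With coding transcripts alone, a choice made after the data were seen, the log2 fold change of Dlx1 at E17 was 0.24 ± 0.08 (SE; adjusted p = 0.0223) and 0.01 after scaling (adjusted p = 0.933), and the call was lost. That of Dlx4 was 0.54 at E17 and 0.36 after scaling (adjusted p = 0.0604), also no longer called, and its coding level was 2.19, 2.21 and 2.04 RPKM in DKO libraries, against 0.941, 1.51 and 1.09 RPKM in WT libraries. The calls of Dlx2, Dlx3, Dlx5, Dlx6 and Msx2 held, with 1.28, 0.90, 0.83, -0.42 and 1.71. At P5 the only transcript annotated for Dlx1 was a coding one. No retained-intron transcript was listed there, so whether the rise was of coding or retained-intron RNA cannot be told. For Dlx6 at E17, the coding transcript Dlx6-202 was at 2.79, 2.63 and 2.62 RPKM in DKO libraries, against 4.30, 4.17 and 3.87 RPKM in WT libraries, and Dlx6-203 did not separate the groups, with means of 2.62 RPKM in DKO and 2.71 RPKM in WT libraries.

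**Figure D4:**
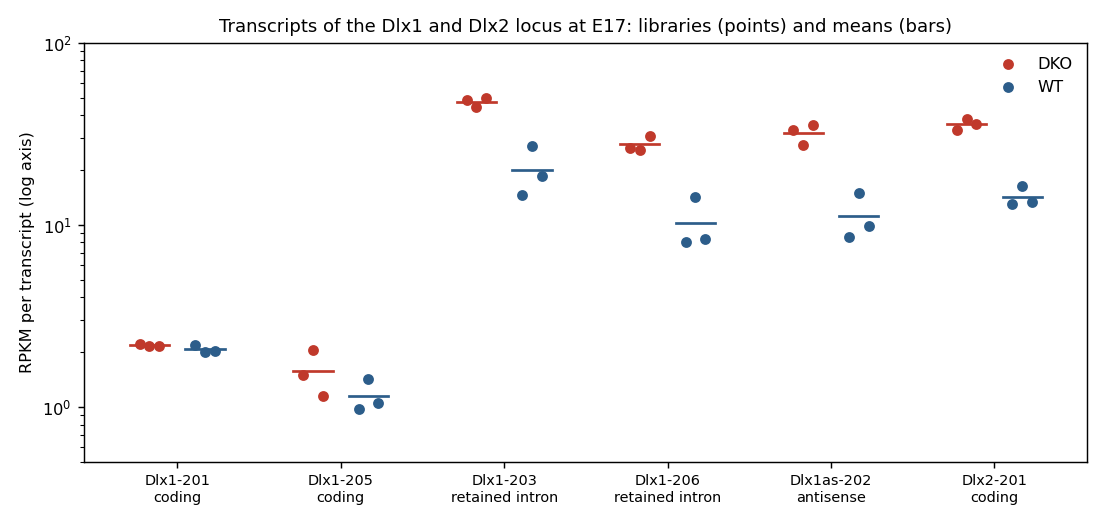
Level (RPKM, log axis) of single transcripts of the Dlx1 and Dlx2 locus at E17 in each library, with bars for group means and the DKO group left of the WT group. The coding transcript Dlx1-201 coincides between genotypes near 2 RPKM, while the retained-intron transcripts Dlx1-203 and Dlx1-206, the antisense transcript Dlx1as-202 and the coding Dlx2-201 lie higher in all DKO libraries.

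Non-coding genes read from the opposite strand of the Dlx loci moved as well. Dlx1as had 33.8, 27.9 and 35.6 RPKM in DKO libraries, against 8.80, 15.6 and 10.3 RPKM in WT libraries at E17, and rose by 1.44 ± 0.18 on the log2 scale (SE; adjusted p = 0.000917; 1.17 after scaling). Its main transcript shares 335 bases with Dlx1-203 and with Dlx1-201, and whether reads were counted by strand is not given in the sources used here, so reads of Dlx1 and Dlx1as over these bases cannot be told apart. Dlx4os, which shares 79 bases with Dlx4, rose at E17 (0.81, and 0.60 after scaling) and at P0 (0.78, and 0.80 after scaling). At P0 it had 18.6, 15.7 and 17.3 RPKM in DKO libraries, against 8.52, 9.93 and 10.3 RPKM in WT libraries.

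Dlx6os1, also known as Evf2, is a long non-coding RNA that in mouse brain regulates Dlx5 and Dlx6. It rose at E17, with 9.67, 8.90 and 10.3 RPKM in DKO libraries, against 4.24, 5.98 and 4.84 RPKM in WT libraries (0.83 ± 0.11, SE; adjusted p = 0.00110; 0.58 after scaling). It fell at P5, with 1.91, 1.68 and 1.44 RPKM in DKO libraries, against 3.16, 5.54 and 3.98 RPKM in WT libraries (-0.94 ± 0.14, SE; adjusted p = 0.000269; -0.78 after scaling). The groups did not overlap at either stage. At E17 it thus went with Dlx5 and against Dlx6, and at P5 it was called where neither of these genes was. Without DKO replicate 3 or WT replicate 3 of E17, the E17 calls of Dlx4os and Dlx6os1 were lost (adjusted p after scaling of 0.0597 to 0.0705). Without the filter on low values the E17 calls of Dlx1as, Dlx4os and Dlx6os1 were also lost (adjusted p after scaling of 0.0696, 0.0897 and 0.0916). Dlx1as and Dlx4os were not called at P5, and Dlx6os2 was below the 1 RPKM limit of the tests at both stages.

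In the DKO epithelium at E17 Dlx1 (79.4 RPKM on average) and Msx1 (77.2) stood highest, with overlapping ranges, followed by Dlx5 (42.8), Dlx2 (37.2), Msx2 (23.1) and Dlx3 (22.4), where the last 2 overlapped, then Dlx6 (7.60) and Dlx4 (3.91). In the WT epithelium at E17 the order was Msx1 (66.1 RPKM), Dlx1 (33.7), Dlx5 (23.9), Dlx2 (15.2), Dlx3 (11.6), Dlx6 (10.3), Msx2 (6.38) and Dlx4 (2.16). Among WT neighbours in this order the ranges of Dlx1 and Dlx5 overlapped, as did those of Dlx3 and Dlx6. Msx2 was thus 2 places higher in the DKO order than in the WT order. The place of Dlx1 at E17 rested on its retained-intron transcripts, since its coding transcripts alone summed to 4.33, 4.72 and 3.96 RPKM in DKO libraries and 3.29, 3.79 and 3.43 RPKM in WT libraries.

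At P5 Dlx3 and Msx2 led in both genotypes, at 87.7 and 58.8 RPKM in DKO libraries and 88.3 and 65.4 RPKM in WT libraries. Dlx5 and Dlx2 came next, at 45.5 and 39.1 RPKM in DKO libraries and 45.4 and 45.6 RPKM in WT libraries. In the DKO epithelium the 4 lowest members, Dlx4, Dlx1, Dlx6 and Msx1, lay between 9.01 and 10.5 RPKM with ranges that overlapped from neighbour to neighbour. In the WT epithelium Msx1 (18.4 RPKM), Dlx4 (13.6), Dlx6 (9.89) and Dlx1 (7.55) were separated from one another. Tables of the stages were normalised separately and annotated differently, so neither levels nor their order are compared between stages. For Dlx1 the P5 value is that of the only transcript annotated at that stage, a coding one.

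The genes that neighbour the Dlx and Msx loci, within 250 kb, were called in part and in both directions. Over all genes tested 6.61% were called higher and 3.07% lower at E17, 16.7% and 22.8% at P0, and 7.35% and 30.8% at P5. At the Dlx1 and Dlx2 locus 2 of 4 neighbours tested rose at E17, the mitochondrial aspartate-glutamate carrier Slc25a12 (0.58, and 0.31 after scaling) and the laminin receptor subunit Itga6 (0.60, and 0.32 after scaling), and none was called at P5. At the Dlx5 and Dlx6 locus the single neighbour tested, Sdhaf3, was not called at E17 or P5, nor was Stx18 beside Msx1. Near Msx2, neither of 2 neighbours was called at E17 and Sptlc1, a subunit of the first enzyme of sphingolipid synthesis, fell at P5 (-0.46, and -0.25 after scaling).

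The Dlx3 and Dlx4 locus is the richest in genes, and its neighbours went in both directions. Of 9 tested at E17 1 rose and 2 fell, of 9 at P0 4 rose and 2 fell, and of 8 at P5 3 rose and 2 fell. Slc35b1, a transporter of nucleotides in the endoplasmic reticulum, rose at P0 with Dlx3 and Dlx4, at 82.4, 75.4 and 89.5 RPKM in DKO libraries and 38.6, 44.2 and 42.7 RPKM in WT libraries, and also at P5 (0.30, and 0.52 after scaling). The integrin subunit Itga3 rose at E17 and at P5 (0.52 and 0.27). Col1a1, the main collagen of bone and dentin, fell at E17 (-1.15), rose at P0 (2.12) and fell at P5 (-1.18), whereas Dlx3 and Dlx4 rose at E17 and P0. The muscle gene Sgca fell at E17 (-0.72). Samd14 fell at P0 (-0.38) and P5 (-0.43), Kat7, a histone acetyltransferase, fell at P0 (-0.32) and rose at P5 (0.33), and Ppp1r9b and Fam117a rose at P0 (0.28 and 0.25).

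Among 28 other transcription factors of tooth development, 24 were tested at E17, of which 8 rose and 4 fell, and 20 at P5, of which 2 rose and 7 fell. Among all genes tested 6.61% were called higher and 3.07% lower at E17, and 7.35% and 30.8% at P5. Both E17 counts of these factors were thus above the shares of all genes. The median log2 fold change of the factors was 0.25 at E17 (-0.01 after scaling) and -0.22 at P5 (-0.04 after scaling), close to the medians of all genes. The 4 called with the smallest p at E17 were all among those that rose. They were Sp6, a zinc-finger factor required for enamel (1.79, and 1.51 after scaling), Foxi3 (1.10, and 0.83), a factor of hair and tooth placodes, Trp63 (0.76, and 0.48), the master factor of stratified epithelia, and Satb1 (0.74, and 0.50), a chromatin organiser. At P5 the Iroquois factors Irx1 (-1.10, and -0.88), Irx2 (-0.94, and -0.73) and Irx3 (-0.74, and -0.54) fell, as did Lhx6 (-0.86, and -0.71), whereas at E17 Irx1 (1.01, and 0.74) and Irx2 (0.80, and 0.54) had risen.

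Of 27 genes of the BMP pathway, which acts upstream of Msx and Dlx genes in the early tooth, 25 were tested at E17, of which 8 rose and 1 fell. The shares of all genes called at E17 were 6.61% higher and 3.07% lower. The ligand Bmp7 (0.87, and 0.61 after scaling), the inhibitors Bambi (0.78, and 0.51) and Sostdc1 (1.17, and 0.88) and the target Id4 (1.36, and 1.09) rose there along with Msx2. At P0 the antagonist Nog fell (-0.78, and -0.76), 1 of 2 tested. At P5 11 of 24 rose and 5 fell, beside 7.35% of all genes called higher and 30.8% lower. Bmp4 rose (0.56, and 0.79), with 72.5, 72.7 and 70.3 RPKM in DKO libraries, against 48.1, 50.5 and 46.2 RPKM in WT libraries, while Bmp2 (-1.27, and -1.09), the inhibitor Smad6 (-0.64, and -0.43) and the target Id3 (-1.03, and -0.80) fell, at the stage at which Msx1 fell.

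Enamel genes, some of which Dlx3 is known to activate and Msx2 to repress in mouse cells, changed in part. At E17 3 of 8 tested rose, Odam (1.89, and 1.67 after scaling), Krt75 (1.13, and 0.92) and Car12 (0.51, and 0.25), and Ambn fell (-0.35, and -0.59). Over all genes 6.61% were called higher and 3.07% lower at E17. At P5 6 of 12 rose and 1 fell, beside 7.35% of all genes called higher and 30.8% lower. The matrix genes Ambn (1.06, and 1.29), Amelx (0.86, and 1.09) and Enam (0.67, and 0.89) and the protease Mmp20 (0.59, and 0.82) were among those that rose. Msx2 was not called at P5, and Dlx3 stood higher only after scaling (0.22, adjusted p = 0.00837). The 15 enamel genes summed to 196737 to 235595 RPKM in DKO libraries and 107419 to 128447 RPKM in WT libraries. All transcripts of a P5 library summed to 417697 to 510007 RPKM. The part of the enamel genes in the deposited fold changes of other genes was not tested.

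The labelled tissue was checked by its markers. At E17 all 6 epithelium markers were measured and summed to 1962 to 2133 RPKM in DKO libraries and 1649 to 1915 RPKM in WT libraries, and 3 of them rose, among them Trp63 and Epcam. Mesenchyme markers were also abundant, at 1688 to 1817 RPKM in DKO libraries and 2333 to 2487 RPKM in WT libraries. In WT libraries this was more than the sum of the epithelium markers. Of the 12 mesenchyme markers 4 fell at E17, among them Col1a2 (-0.94) and Prrx1 (-0.20). Among all genes tested at E17 6.61% were called higher and 3.07% lower. Epithelium here names the labelled tissue, and which cells the RNA of the members came from was not tested. At P0 none of the epithelium markers was analysed here. The 4 mesenchyme markers there summed to 333 to 426 RPKM in DKO libraries and 253 to 315 RPKM in WT libraries, with Dcn higher (1.59) and Col3a1 and Prrx1 lower (-1.09 and -0.96).

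Markers of other tissues moved with the genotype at E17 too, beside the rise of the Dlx genes and Msx2. Of odontoblast and osteoblast genes 5 of 10 fell at E17 and none rose, and at P5 9 of 11 fell and 1 rose, with Dmp1 at -2.55. The shares of all genes called were 6.61% higher and 3.07% lower at E17, and 7.35% and 30.8% at P5. Of cornifying epithelium genes 4 of 6 rose at E17, with summed levels of 570 to 988 RPKM in DKO libraries and 495 to 639 RPKM in WT libraries. Of skeletal muscle genes 3 of 6 fell at E17 and none rose, with Myh3 at -1.72, Myog at -1.31 and Myod1 at -1.22. Their summed levels overlapped, at 304 to 409 RPKM in DKO libraries and 317 to 740 RPKM in WT libraries, where WT replicate 2 was the lowest of its group. Dlx1, Dlx2, Dlx5 and Dlx6 are also known from GABAergic neurons, whose defining genes Gad1, Gad2 and Slc32a1 were all below 0.5 RPKM in every library of E17 and P5. The general neuronal genes Tubb3 and Stmn2 rose at E17 (1.61 and 1.65), and Tubb3 fell at P5 (-1.36). The part of any of these markers in the family's changes was not tested.

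Across the 12 libraries of E17 and P5, after scaling and centring within each stage, members differed in how alike they were. Dlx3 and Dlx5, on different chromosomes, were closest (Pearson r = 0.978), each being the other's best match among 10732 genes, and Dlx2 and Msx2 followed (r = 0.959). Linked genes were less alike, at 0.766 for Dlx1 and Dlx2, 0.805 for Dlx3 and Dlx4, and -0.650 for Dlx5 and Dlx6. The values of Dlx1 join unlike measures, an E17 sum mostly of retained-intron transcripts and a single coding transcript at P5. Msx1 and Msx2 stood at -0.06, and Msx1 lay between -0.25 and 0.39 with every other member. These values describe 12 libraries that share genotype and stage, and a difference between genotypes at 1 stage alone makes a high value.

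Outside the family, the genes most like Msx2 were Slc39a8 (r = 0.988), a zinc and manganese importer, and Moxd1 (0.987). The genes most like Dlx2 were the kinesin Kif21a (0.973) and the lysosomal enzyme Galc (0.972). For Dlx1 they were its antisense partner Dlx1as (0.965) and Cyp1b1 (0.961), for Dlx3 after Dlx5 Mfsd1 (0.965), for Dlx5 after Dlx3 the proton-pump subunit Atp6v1b2 (0.959), and for Dlx4 Phf13 (0.966) and the BMP and Wnt inhibitor Sostdc1 (0.949). Dlx6, the member that fell at E17, was most like the collagen gene Col5a2 (0.938) and Sorcs2 (0.927). Msx1 was most like the secreted Wnt antagonist Frzb (0.972) and the macrophage growth factor receptor Csf1r (0.968).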

How the data were processed

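RNA-seq of dispase-separated molar epithelium gave 18 libraries, 3 for each of 6 groups. Libraries were depleted of ribosomal RNA, per the labels' protocols, and reads were processed by the authors with Partek on mm10, per the submitters' processing notes. No source used here gives the aligner, the annotation or the strand setting. Each deposited value was taken as the RPKM of 1 transcript, a unit inferred from the values. Of low values of single-transcript genes at E17 and P0, 89.1% to 92.1% were whole multiples (within 0.1 read) of the worth of 1 read. P5 was not checked in this way. Per the file headers, the deposited count of alignments per library lay between 65953495 and 99967427 at E17, between 74845352 and 108920337 at P0, and between 39209676 and 72660832 at P5.

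RPKM were summed per symbol. Genes with at least 1 RPKM in 3 of 6 libraries were tested as log2(RPKM + 1) with limma 3.58.1 (trend; R 4.3.3), two-sided, Benjamini-Hochberg over all genes, and called at 0.05 in both scalings. Stage differences used summed squared standard errors and Satterthwaite degrees of freedom. Ratios were tested with exact permutation (SciPy 1.17.1). Transcript types and positions are from GENCODE M21. Fits were tested on simulated data.

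Members and lists were chosen with earlier results of these data known. Named were all members, their antisense genes, Hmgn1 and Hmgn2, up to 4 called genes of the smallest p per list and stage, called neighbours within 250 kb, and the 2 genes most like each member. A few list genes are not reported here. Single neighbours that were not called, Bmp4 levels, Irx1 and Irx2 at E17 and list genes named for a tissue's absence were picked with their values known. The alternatives tried were other scalings, no filter, a pseudocount of 0.1, no trend, a replicate block, other transcript choices and each library left out.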

Additional observations from a re-analysis of the deposited data

Results flagged for a closer look

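For 7 members the genotype effect (DKO over WT, log2 scale) differed between P5 and E17 by a test of the difference itself, adjusted over 11049 genes, in both scalings. Of these genes 27.5% were called lower at P5 and 2.61% higher. The effect at P5 minus that at E17 was -1.85 for Msx2, -1.44 for Dlx2, -1.19 for Msx1, -0.98 for Dlx4, -0.91 for Dlx3 and -0.81 for Dlx5, and 0.35 for Dlx6, where the median genotype effect of all genes tested was -0.25 at P5 and 0.25 at E17. After upper-quartile scaling the differences were -1.36, -0.95, -0.70, -0.56, -0.41, -0.31 and 0.81 in the same order of genes. Between P5 and P0 the effect differed for both members measured, by -0.42 for Dlx3 and -1.03 for Dlx4, where 31.2% of 1758 genes were called lower. The annotation of P5 differs from that of E17 and P0, and its part in these differences was not tested. With 3 libraries per group no single library was tested as an outlier.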

How the results depend on the processing

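At E17 7 members were called, at P0 2, at P5 2, and for the difference between P5 and E17 7. Of all genes tested 6.61% were called higher and 3.07% lower at E17, 16.7% and 22.8% at P0, and 7.35% and 30.8% at P5. For the difference 27.5% were called lower at P5 and 2.61% higher. Without the filter on low values the E17 count was 4 (3 higher, 1 lower), as Dlx1, Dlx3 and Dlx4 had adjusted p after scaling of 0.0883, 0.0655 and 0.103 with more genes tested, and the P5 minus E17 count was 6. With upper-quartile scaling alone the P5 count was 4 (3 higher, 1 lower). With each library left out the counts ranged from 5 to 7 at E17, stayed at 2 at P0 and at P5, and ranged from 6 to 8 for the difference; Dlx1 lost its E17 call without DKO replicate 3 or WT replicate 3 (adjusted p after scaling 0.0514 and 0.0624). Signs turned with upper-quartile and median-of-ratios scaling for Msx1 at E17 (-0.0465 and -0.0439) and, at P5, for Dlx2 (0.0140 and 0.0769), Dlx3 (0.216 and 0.280), Dlx6 (0.154 and 0.213) and Msx2 (0.0710 and 0.134). With a library left out they turned at P5 for Dlx3 (-0.0573 to 0.0731 over the libraries) and Dlx5 (-0.0148 to 0.0398). The E17 difference in Dlx1 over Dlx2, 0.01, became -0.0173 with a pseudocount of 0.1, -0.0959 to 0.145 with a library left out, -0.0326 with the most abundant transcripts and -1.03 with coding transcripts alone, where Dlx1 loses its retained-intron transcripts. Dlx4 over Dlx3 at E17 was -0.11 with a pseudocount of 0.1. Same-numbered libraries of the genotypes correlated at -0.22 to 0.27 in their deviations from the group means. With 3 libraries per group these values cannot show whether the numbers pair samples. The replicate block left the counts at 7, 2, 2 and 7. Of the values at E17 and P0, for which reads were estimated, Dlx4 at E17 had the fewest, at 110 to 300 reads per library.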
